A study of Homo sapiens with 2 samples.

Results

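The regions described here are the listed HMGA1 peaks at which the library from growing vector cells had 2 or fewer tags. They were chosen by their vector tag count alone, a measured value, from a deposited list of 2352 peaks, with the 0.5 that the list writes in place of 0 read as 0. The rule gave 372 peaks, 15.8% of the list, of which 14 had 0 vector tags, 88 had 1 and 270 had 2. They are called vector-poor peaks below, and the 1477 peaks with 3 or 4 vector tags (62.8% of the list) served as the comparison. The remaining 503 peaks had 5 to 8 vector tags. Since vector tags chose the peaks, the vector tags themselves and the fold of RAS over vector are given as a description only.

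HMGA1 is a small architectural protein of chromatin that holds on to stretches of A and T through the minor groove, by short motifs called AT hooks, and bends the DNA. In fibroblasts that senesce after activation of an oncogene it is known as a component of senescence-associated heterochromatin foci, the condensed DNA bodies of these nuclei. A ChIP-seq tag is a sequenced end of a DNA fragment recovered with the antibody, so tags gathered at a site reflect how often that site was recovered together with HMGA1.

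Both groups were IMR90 human diploid fibroblasts between population doublings 25 and 35, kept in 2% oxygen. One group was infected with a RAS retrovirus and became senescent, and the other was infected with the vector retrovirus and kept growing. In each, infection on days 1 and 2 was followed by selection in 1 µg/ml puromycin from day 3 and by harvest on day 12. The RAS form and its promoter were not given in the sources used here, and infection and selection were common to both groups. Each group had 1 library, about 35400000 tags for RAS and 34100000 for vector. No value therefore has an error between replicates, no test between the conditions was possible, and all intervals below are 95% intervals for counting error alone. The libraries were amplified by PCR with no molecular identifiers, and repeated reads of a molecule would make the intervals of tag counts and ratios too narrow. All positions are hg19, as deposited, and no gene annotation or sequence of that build was used here, so peaks are named by position.

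The vector-poor peaks were modest peaks in the RAS library. They ranged from 13 to 26 RAS tags around a median of 17 (quartiles 16 and 19). Peaks with 3 or 4 vector tags ranged from 13 to 30 around a median of 18 (quartiles 17 and 20), and the median of the whole list was 19. Together the vector-poor peaks held 6515 RAS and 628 vector tags, a mean of 16.9 RAS tags at vector depth against 1.69 vector tags. Peaks with 20 or more RAS tags made up 16.7% of them (62 of 372, exact binomial interval 13.0% to 20.9%) and 29.2% of the comparison peaks (432 of 1477, 26.9% to 31.6%). Over the whole list the share was 42.4% (997 of 2352). The comparison peaks were mixed in this, with 18.3% at 3 vector tags (128 of 701, 15.5% to 21.3%) and 39.2% at 4 (304 of 776, 35.7% to 42.7%). None of the vector-poor peaks passed 26 RAS tags, while the list as a whole reached 38.

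The list's own limits bear on this difference. Every listed peak had at least 4-fold more RAS than vector tags at equal depth, so a peak with 4 vector tags needed 17 RAS tags, one with 3 needed 13 and one with 2 needed only 9. The fewest RAS tags at any listed peak were 13, and the lowest findPeaks score, the peak caller's own value, was 16. The vector-poor peaks thus lay above their edge for the fold, and 26.1% of them (97 of 372, 21.7% to 30.9%) had the lowest score, as did 26.0% of the 701 peaks with 3 vector tags (182 peaks, 22.8% to 29.4%). Set beside peaks with 3 vector tags alone, the RAS tags did not differ in their median (17) or quartiles (16 and 19). Under 17 RAS tags lay 39.5% of the vector-poor peaks (147 of 372) and 39.5% of the peaks with 3 vector tags (277 of 701). Where 4 vector tags could also pass, at 17 or more RAS tags, 225 vector-poor peaks had a median of 18 RAS tags and 1200 comparison peaks a median of 19.

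**Figure D1:**
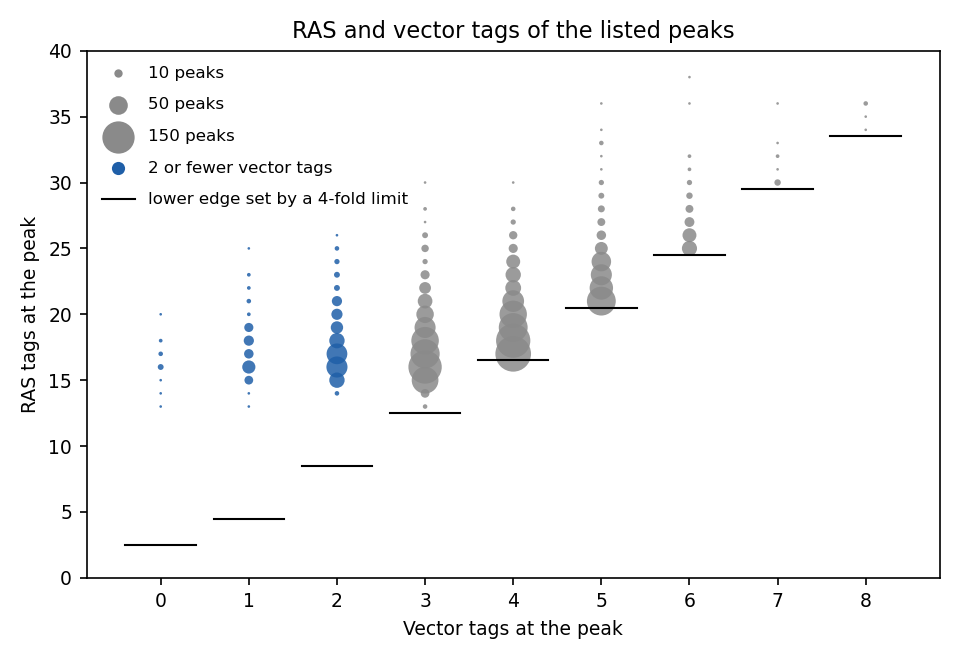
RAS tags (vertical axis) against vector tags (horizontal axis) of all 2352 listed peaks, with the area of each point in proportion to the number of peaks; blue points are the 372 peaks with 2 or fewer vector tags and black lines are the lower edges that a 4-fold limit sets. Peaks with 3 or more vector tags start at their edge or just above it, whereas the blue points start at 13 RAS tags, above edges of 3, 5 and 9 RAS tags.

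As a description of the selected contrast, the median of the authors' fold over vector was 8.67 at the vector-poor peaks and 5.06 at the comparison peaks. A fold of 8 or more was held by 271 of the 372, against 12.2% of all listed peaks, and the rule used this contrast, so nothing is read from that count. All 102 peaks with 0 or 1 vector tag passed it, 169 of the 270 with 2 vector tags did, and 17 peaks outside the set did. The exact lower limit of the RAS-to-vector tag ratio had a median of 2.08 over the vector-poor peaks, with a range of 1.55 to 4.76, and it was under 2 at 164 of them. These limits do not allow for the choice of the peaks by low vector tags.

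The 14 peaks with 0 vector tags had 13 to 20 RAS tags. At vector depth this is 4.18 to 6.42 times a floor of 3 tags per library, the upper limit that a count of 0 allows, with no allowance for error in the RAS tags. With that error counted, the exact lower limits of their ratios were 2.94 to 4.76. The peak at chr22:40140492-40140858 had the most, 20, with a focus ratio of 0.815. The focus ratio is the fraction of tags that lie on the side of the peak centre where a point source of fragments would put them, so a sharp peak has a high value. Both chr2:171723290-171723656 and chr3:145924736-145925102 had 18 RAS tags, but their focus ratios were 0.656, the lowest of the 14, and 0.778. Peaks of 17 tags lay at chr1:221936269-221936635, chr8:120236331-120236697 and chrX:129946477-129946843, with focus ratios of 0.720, 0.750 and 0.808. The 5 peaks of 16 tags had focus ratios of 0.696 at chr15:32094773-32095139, 0.750 at chr10:60629513-60629879, 0.760 at chr1:48845307-48845673, 0.783 at chr10:83803501-83803867 and 0.818 at chr21:33037482-33037848. The last was the only vector-poor peak on chromosome 21. The 3 peaks with the fewest tags differed in shape: chr1:210280882-210281248 had 15 tags and a focus ratio of 0.840, chr13:57777101-57777467 had 14 and 0.682, and chr4:113415198-113415564 had 13 and 0.889, the highest of the 14.

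Among the 88 peaks with 1 vector tag, RAS tags ran from 13 to 25. The most, 25, were at chrX:139967168-139967534, with a ratio of 24.1 and an exact interval of 3.94 to 989. Next came chr1:89309913-89310279 and chr19:22720221-22720587 with 23 each (ratio 22.2, 3.60 to 913). At 22 tags stood chr4:136324615-136324981 and chr4:168539984-168540350 (ratio 21.2, 3.43 to 875). At 21 tags stood chr6:10797145-10797511, chr6:50766854-50767220 and chr7:29537491-29537857 (ratio 20.2, 3.25 to 837). The last of these 10 peaks, at 20 tags, were chr1:98517358-98517724 and chr2:3211629-3211995 (ratio 19.3, 3.08 to 799). The last stood furthest above its surroundings, by 9.40-fold in the authors' deposited table, where the other 9 lay between 4.22 and 6.05. The high upper limits follow from a single vector tag, whose own exact interval is 0.0253 to 5.57 tags.

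Among the 270 peaks with 2 vector tags, RAS tags ran from 14 to 26, and chr11:90996011-90996377 had the 26, with a ratio of 12.5 (3.14 to 109). At 25 tags stood chr2:115552274-115552640, chr4:86153057-86153423 and chr10:57078009-57078375 (ratio 12.0, 3.00 to 105). At 24 tags stood chr1:79279107-79279473, chr2:144721541-144721907, chr8:123382615-123382981 and chrX:34795067-34795433 (ratio 11.6, 2.87 to 101). At 23 tags the peaks chr5:98921186-98921552 and chr6:66160979-66161345 closed the 10 (ratio 11.1, 2.74 to 97.0). In all, 5 peaks with 2 vector tags had 23 RAS tags, and these were taken by chromosome order. Just outside the rule, the 5 peaks with 3 vector tags and the most RAS tags had 26 to 30. They were chr5:86728634-86729000 with 30, chr1:22037214-22037580 and chr16:52378110-52378476 with 28, chrX:27683985-27684351 with 27 and chr1:77352841-77353207, the first in chromosome order of 5 peaks with 26. Their lower limits were 2.56 to 3.00, beside 2.74 to 3.14 at the 10 named peaks with 2 vector tags.

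Whether these sites were empty of HMGA1 in vector cells cannot be read from counts of this size. For a count of 2 the exact interval was 0.242 to 7.22 tags, and for the count of 3 just outside the rule it was 0.619 to 8.77. The local background, taken as RAS tags at vector depth divided by the authors' fold over the surroundings, had a median of 3.58 tags per peak width of 366 bp. It lay inside the interval of the vector count at all 88 peaks with 1 tag and all 270 with 2, and the list's limits nearly fixed this. A listed peak stood at least 4-fold above its surroundings, so its background could not pass its scaled RAS tags divided by 4. That cap lay under the upper limit of the vector count at every peak with 2 tags. The same held at every peak with 1 tag except chrX:139967168-139967534. At 12 of the 14 peaks with 0 tags the local background lay above the 3 tags that a count of 0 allows, a one-sided limit. At 4 of the 14 it lay above 3.69 tags, the two-sided limit that matches the intervals of the other counts. By the first limit the background did not pass the upper limit of the vector count at 360 of the 372, and by the second at 368. Most of these have counts of 1 or 2, so the numbers do not show that vector level and background were alike. The background was above the vector count itself at 370 of the 372, at 83.3% of peaks with 3 tags and at 42.7% with 4. The rule chose the peaks by that count, so nothing is read from this. The peaks are called here by their tag count and not as empty sites. The background in the vector library itself was not analysed here.

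Peak shape in the RAS library did not use the vector tags. The focus ratio had a median of 0.733 at the vector-poor peaks (quartiles 0.680 and 0.792) and 0.727 at the comparison peaks (0.680 and 0.786), a difference far inside the spread of either set. Compared at each RAS tag number from 15 to 22, its median was higher in the vector-poor peaks at 7 of the 8 numbers and lower at 1. It was higher by 0.035 at 19 RAS tags, by 0.031 at 20 and by only 0.001 to 0.009 at the others. At 15 RAS tags it was lower by 0.022. By vector tags, it had a median of 0.769 at the 14 peaks with 0 tags, 0.750 at the 88 with 1 and 0.726 at the 270 with 2, and then 0.724 at 3 tags, 0.731 at 4, 0.742 at 5 and 0.741 at 6. The 11 peaks with 7 vector tags had 0.789 and the 5 with 8 had 0.782, so high values were not limited to the fewest vector tags. For 0 and 1 tag together the median was 0.755, with an order-statistic interval over peaks of 0.733 to 0.773. That of the comparison peaks was 0.720 to 0.731. These intervals take peaks of 1 library as independent, so no separation is read from them. Low focus ratios, under 0.65, were held by 8 of these 102 peaks (7.84%, exact interval 3.45% to 14.9%). They were held by 47 of the 270 peaks with 2 tags (17.4%, 13.1% to 22.5%) and by 224 of the 1477 comparison peaks (15.2%, 13.4% to 17.1%). High ones, of 0.8 or more, were held by 31.4% of the 102 (22.5% to 41.3%), 21.9% of the 270 (17.1% to 27.3%) and 21.0% of the comparison peaks (18.9% to 23.2%). Over all 372 vector-poor peaks, the share under 0.65 was 14.8%, against 14.6% of the list. The share at 0.8 or more was 24.5%, against 22.2% of the list. As a whole, the vector-poor peaks were thus near the list in both. At 17 or more RAS tags, the 56 peaks with 0 or 1 tag had a median of 0.755 with an interval of 0.731 to 0.778, which overlapped that of the 1200 comparison peaks, 0.720 to 0.733. The quartiles overlapped throughout, and the limits of 0.65 and 0.8 were chosen after the values were seen. Peaks are not replicates, so the difference between 0 or 1 tag and more tags was not tested.

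The sharpest vector-poor peak was chr5:98921186-98921552, with a focus ratio of 0.962, 23 RAS tags and 2 vector tags. Next were chr7:16708977-16709343 at 0.909, chr1:108733049-108733415 and chr2:158830003-158830369 at 0.905 and chr4:171472612-171472978 at 0.895, a value that 5 peaks shared. The least focused was chr5:51245070-51245436 at 0.536, with 15 and 2 tags. It was followed by chr18:11122375-11122741 at 0.552, chr10:87123512-87123878 and chr20:16226138-16226504 at 0.567 and chr8:24854717-24855083 at 0.571, a value that 2 peaks shared. With ties counted, the 9 sharpest peaks had 13 to 23 RAS tags and the 6 least focused had 15 to 18.

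**Figure D2:**
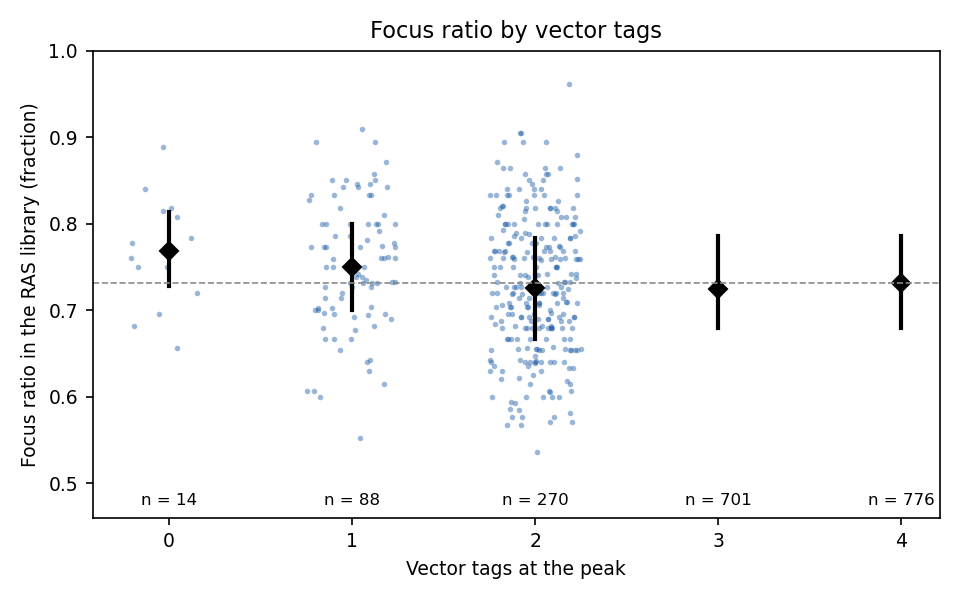
Focus ratio in the RAS library (fraction, vertical axis) by vector tags (horizontal axis); blue points are single vector-poor peaks, spread sideways for legibility, diamonds are medians, black bars run from the lower to the upper quartile, and the dashed line is the median of all listed peaks, 0.731. Medians of 0.769 and 0.750 at 0 and 1 vector tag lie above the line, and those at 2 and 3 tags, 0.726 and 0.724, just below it, with overlapping quartiles.

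The surroundings of vector-poor peaks held slightly fewer RAS tags than those of comparison peaks, and this did not persist at equal RAS tags. The median local background was 3.58 tags (quartiles 3.16 and 3.96) against 3.73 (3.30 and 4.17). Peaks with 3 vector tags had 3.60 and those with 4 had 3.89. Because a listed peak had to stand at least 4-fold above its surroundings, its background could not pass its scaled RAS tags divided by 4, and peaks with more tags were allowed more background. At 17 or more RAS tags the medians were 3.81 and 3.88. Compared at each RAS tag number from 15 to 22, the median background was higher in the vector-poor peaks at 6 of the 8 numbers and lower at 2. At 16 RAS tags it was 3.48 (94 peaks) against 3.40 (160 peaks), at 17 it was 3.52 (78) against 3.59 (306), and at 18 it was 3.91 (51) against 3.76 (278). The largest gap, 5.01 against 4.52, was at 22 RAS tags, where only 7 vector-poor peaks stood against 56. At each of the 8 numbers the quartile ranges of both sets overlapped.

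**Figure D3:**
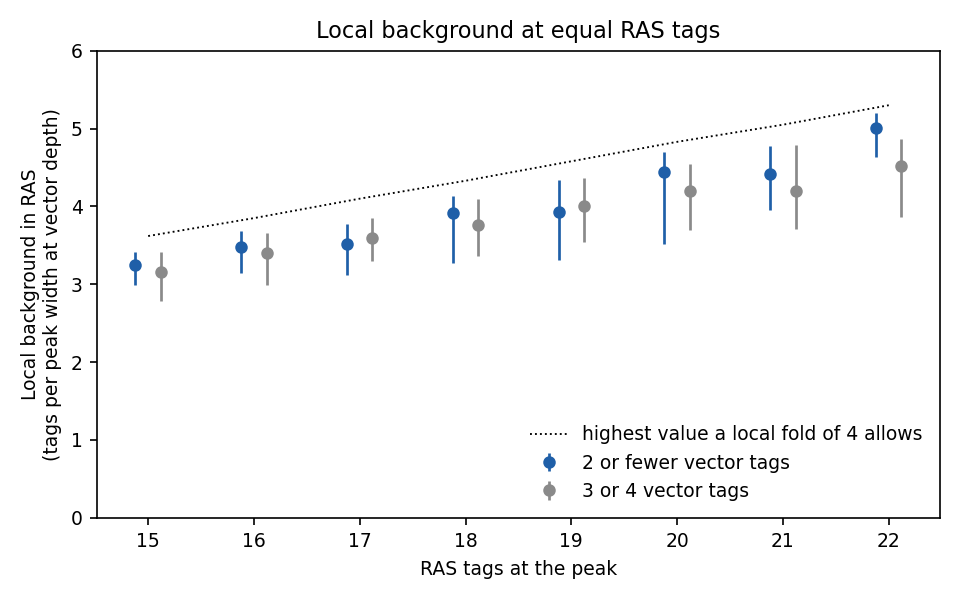
Local background in the RAS library (tags per peak width at vector depth, vertical axis) at each number of RAS tags (horizontal axis) for vector-poor peaks (blue) and peaks with 3 or 4 vector tags (grey); points are medians, bars run between the quartiles and the dotted line is the most that a 4-fold limit over the surroundings allows. Both sets climb with RAS tags under the dotted line, and their bars overlap at each of the 8 numbers.

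The fold over the surroundings compares a peak with its own neighbourhood in RAS cells. A fold of 5 or more was held by 107 of the 372 vector-poor peaks (28.8%, exact interval 24.2% to 33.7%), against 32.6% of all listed peaks and 31.8% of the comparison peaks (29.5% to 34.3%), a share near that of the list. Single peaks stood far apart. At chr11:127646118-127646484, with 19 RAS and 2 vector tags, the background was 0.805 tags and the authors' fold over the surroundings 22.73, the highest on the list. Low backgrounds also lay around chr15:23682647-23683013 (1.46 tags), chr4:70254372-70254738 (1.65), chr5:110906386-110906752 (1.79) and chr11:23211349-23211715 (1.87). High backgrounds lay at peaks with 22 to 26 RAS tags: 6.28 at chr11:90996011-90996377, 5.86 at chr10:57078009-57078375, 5.70 at chr2:144721541-144721907, 5.34 at chrX:139967168-139967534 and 5.20 at chr2:5122395-5122761, the last a value that 3 peaks shared.

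Vector-poor peaks lay on all 23 chromosomes from 1 to 22 and X that held the comparison peaks. Their share of the listed peaks on a chromosome ran from 5.26% on chromosome 21 (1 of 19, exact interval 0.133% to 26.0%) to 27.8% on chromosome 22 (5 of 18, 9.69% to 53.5%). Chromosome 1 held the most, 39 of its 192 listed peaks (20.3%, 14.9% to 26.7%). Chromosome 9 had 21 of 87 (24.1%, 15.6% to 34.5%), and chromosome 5 had 18 of 164 (11.0%, 6.64% to 16.8%). The interval of every one of the 23 held the overall share of 15.8%, so no chromosome stood apart at these counts. Per Mb between the first and last listed peak there were 0.13 vector-poor peaks over all 23, from 0.0263 on chromosome 21 to 0.196 on chromosome 15.

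Protein-coding genes per chromosome were counted from a RefSeq table of another build, GRCh38.p14, and divided by the same spans. Across the 23 chromosomes, the share of vector-poor peaks and genes per Mb had a Spearman's rho of 0.41, given as a description, since the points rest on 18 to 199 listed peaks each and share 1 pair of libraries. On the 6 chromosomes with the most genes per Mb (11, 16, 17, 19, 20 and 22) the share was 17.5% (55 of 314, 13.5% to 22.2%). On the 6 with the fewest (2, 4, 5, 8, 13 and 18) it was 13.9% (108 of 776, 11.6% to 16.6%). Counting only peaks with 17 or more RAS tags and at most 4 vector tags, these shares were 18.6% (13.3% to 24.8%) and 13.1% (10.1% to 16.6%). The intervals overlapped both ways, and the grouping of 6 was made after the values were seen. Median local background at vector-poor peaks was 3.67 tags on the gene-rich 6 and 3.50 on the gene-poor 6, and at comparison peaks 3.74 and 3.73. Across the 23 chromosomes, median background and genes per Mb had a rho of 0.12 at vector-poor peaks and -0.61 at all listed peaks, also given as a description. The medians at vector-poor peaks rest on only 1 to 39 peaks per chromosome. The cap that RAS tags put on the background was not matched between chromosomes, so no contrast is read from these values.

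**Figure D4:**
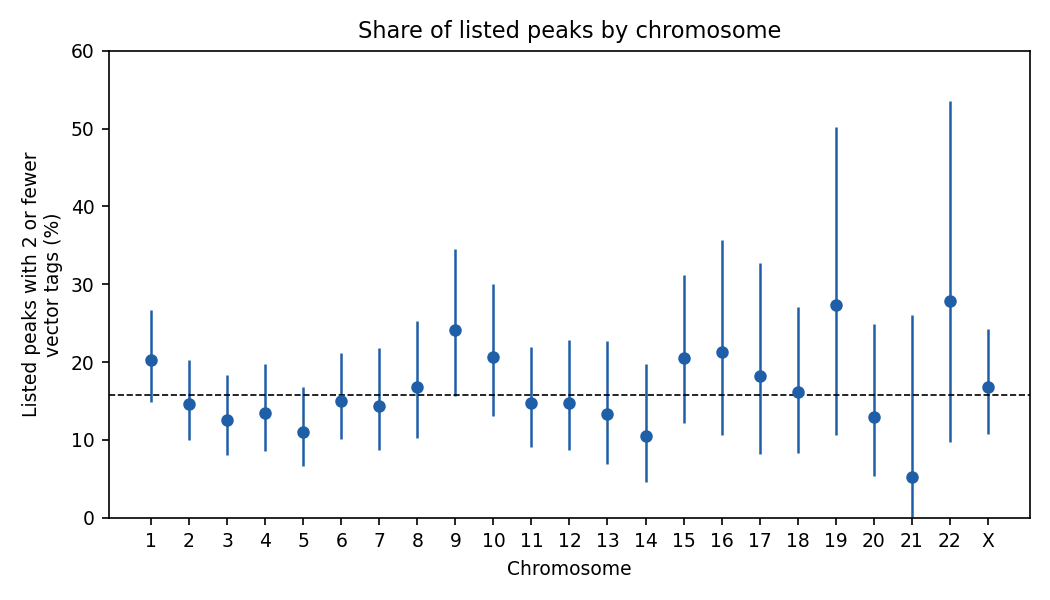
Share of listed peaks with 2 or fewer vector tags (percent, vertical axis) on each chromosome (horizontal axis), with exact 95% binomial intervals over its listed peaks as bars and the overall share of 15.8% as a dashed line. All 23 bars cross the dashed line, and chromosomes 19, 21 and 22, with 22, 19 and 18 listed peaks, have the widest.

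Distances on the list differed little between vector-poor and comparison peaks beside their spread. The median distance from a vector-poor peak to the nearest listed peak of any kind was 378 kb (quartiles 152.9 and 829 kb), against 368 kb (159 and 790.0 kb). A listed neighbour within 100 kb was held by 62 of the 372 (16.7%, exact interval 13.0% to 20.9%) and by 261 of the 1477 (17.7%, 15.8% to 19.7%). Within 10 kb the numbers were 8 of 372 (2.15%, 0.933% to 4.19%) and 30 of 1477 (2.03%, 1.37% to 2.89%). The nearest neighbour was itself vector-poor for 53 of the 372 (14.2%, 10.9% to 18.2%), close to their 15.8% share of the list.

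**Figure D5:**
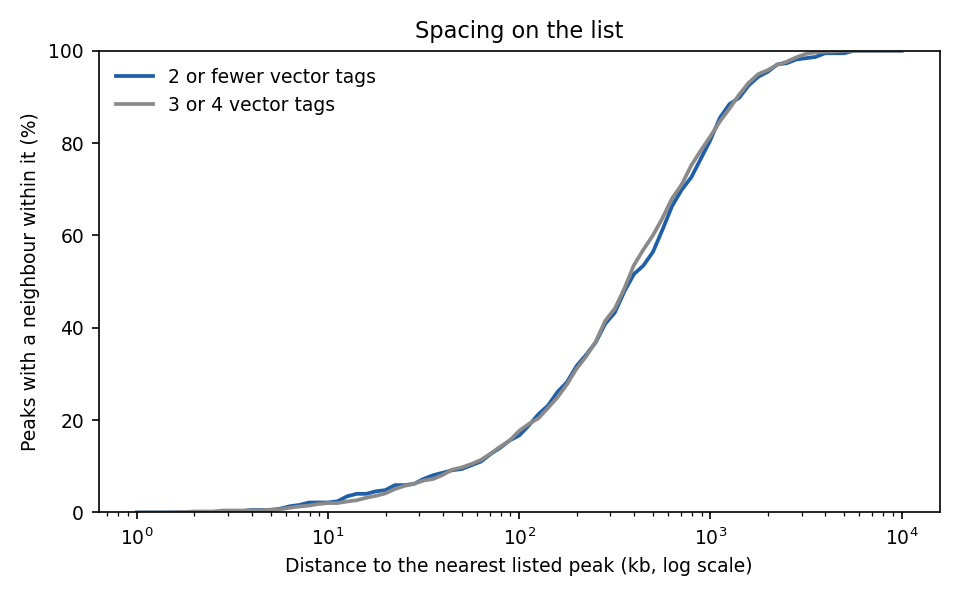
Percent of peaks (vertical axis) that have another listed peak within a given distance in kb (horizontal axis, log scale), for the 372 vector-poor peaks (blue) and the 1477 peaks with 3 or 4 vector tags (grey). Both curves lie close together over the whole range and reach 16.7% and 17.7% at 100 kb.

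Between neighbouring vector-poor peaks on a chromosome the median distance was 4946 kb (quartiles 1911 and 10070 kb), and among the more numerous comparison peaks it was 1227 kb. A single pair was closer than 100 kb: on chromosome 13, chr13:99475069-99475435 (18 RAS and 2 vector tags) and chr13:99505258-99505624 (19 and 1) lay 30.2 kb apart. The next pair, chr10:79488535-79488901 (15 and 1) and chr10:79599368-79599734 (19 and 2), was 111 kb apart. On chromosome 1 the pairs at 67017007 and 67129563 (16 and 2, then 19 and 1) and at 182883361 and 183036283 (19 and 1, then 18 and 2) were 113 and 153 kb apart. On chromosome 16 the peaks at 78609798 (23 and 2) and 78753502 (17 and 2) were 144 kb apart. No other listed peak lay between the members of these 5 pairs. The longest run of neighbouring listed peaks that were all vector-poor held 5, from 75761336 to 83803867 on chromosome 10, over 8043 kb, and summed to 83 RAS and 7 vector tags. It includes the pair on chromosome 10 and ends at the peak with 0 vector tags at 83803501. A further 10 runs held 3 peaks and 29 held 2.

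The 8 vector-poor peaks with a listed neighbour within 10 kb show how near the limit the counts can fall, and they were looked at after their values were seen. None of the 8 neighbours was vector-poor, and they had 3 to 5 vector tags. Vector-poor peaks made up 15.8% of the list, and 8 neighbours are too few to read anything from this. The closest pair lay 2648 bp apart on chromosome 5. There chr5:152953734-152954100 had 21 RAS and 2 vector tags, its neighbour chr5:152951086-152951452 had 21 and 3, and the local background was 3.76 at both. On chromosome 2, chr2:169515536-169515902 had 18 and 2 tags and its neighbour at 169508883 had 18 and 3. In both pairs a difference of 1 vector tag placed one peak inside the rule and its neighbour outside. The peaks at chr5:4013944 and chr7:67412690 also had 2 vector tags beside 3 at their neighbours. Elsewhere the difference was larger. It was 2 against 4 at chr12:9865142, 2 against 5 at chr4:138885368, and 1 against 4 at chr9:90679222 and chr12:34293215.

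One vector-poor peak belongs to a pair in the region of chromosome 7 to which NAMPT maps; this gene encodes the rate-limiting enzyme of the salvage route to NAD+. The pair was chosen for this place and with its values known, and no distance to the gene was measured. The peak at chr7:105927232-105927598 had 16 RAS tags and 1 vector tag, a focus ratio of 0.680 and a local background of 2.60. Its neighbour 18432 bp away, chr7:105945664-105946030, had 17 and 3 tags, a focus ratio of 0.857 and the same background of 2.60, and so fell just outside the rule.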

How the data were processed

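The submitters' processing notes name Bowtie 0.12.9, HOMER and the build hg19. For HOMER they give no version, and its settings and the control or input DNA it used are not given in these sources. Per the labels' protocols, 5 µg of anti-HMGA1 antibody was used, and 10 ng of recovered DNA went through 12 PCR cycles to make a library. No column of the peak list names a library, so RAS was read as the peak-called library and vector as its control from the table's name. The authors' table, per the file headers, gives tag signal scaled to 10000000 tags or to vector depth, the vector tags, ratios (folds) over vector and over the surroundings, p-values, a findPeaks score and the focus ratio as a fraction. It also gives a clonal fold change, which is not reported here. All of these are the authors' own values per peak.

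RAS signal rose in steps of 0.282, and 99.7% of values were whole multiples within 0.1 tag, which gave the whole RAS tags used here; the scaling factor to vector depth was 0.963. Local background was the RAS signal at vector depth over the local fold. Ratios of tags and shares of peaks carry exact (Clopper-Pearson) intervals, vector counts exact Poisson intervals, with 3 tags for a count of 0, and medians order-statistic intervals. Distances are between peak centres. The scripts were tested on simulated data. Peaks named are those with 0 vector tags, the 10 with most RAS tags at 1 and at 2 vector tags, the 5 extremes of focus ratio and of local background, the 5 closest pairs, those on a chromosome with 3 or fewer, and the 5 with 3 vector tags and most RAS tags, with ties taken by chromosome order; others are said to be chosen later. The set and these rules were chosen with earlier results of these data known. With 1 library per group, no test was run. The planned gene lists were not run, since no hg19 annotation was used here. Python 3.11.15, numpy 2.4.6, pandas 2.3.3, scipy 1.17.1 and matplotlib 3.10.9 were used.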

Additional observations from a re-analysis of the deposited data

How the results depend on the processing

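No paired analysis was possible because RAS and vector had 1 library each, which also leaves no replicate to drop. Medians were called moved when they left the order-statistic interval of the reported median, and counts when they changed over 1.5 times. The share with a near neighbour was judged by its exact binomial interval. Differences were judged by the interval of the vector-poor median less the comparison median, so error in the comparison median was not counted. The 372 peaks became 14 with 0 vector tags alone, 102 with 1 or fewer, 1073 with 3 or fewer, 208 at an authors' p-value of at most 1e-10 and 107 at a fold over the surroundings of at least 5. Their median RAS tags, 17 as reported, were 16 with 0 vector tags alone and 18 both at 17 or more RAS tags and at p of at most 1e-10. The RAS tag difference from peaks with 3 or 4 vector tags, -1 as reported, was 0 against 3 tags, -2 against 4 tags, -2 against 3 or more and -6 at that p. The median focus ratio rose from 0.733 to 0.769 with 0 vector tags alone and 0.755 with 1 or fewer. Its difference from the comparison peaks, 0.006, turned to -0.011 at a fold over the surroundings of at least 5. The median local background, 3.58, was 3.81 at 17 or more RAS tags, 3.80 at that p and 2.92 at that fold. Its difference, -0.147, was -0.0166 against 3 tags, -0.305 against 4, -0.325 against 3 or more, -0.0660 at 17 or more RAS tags, -0.992 at that p and -0.0438 when given per 10000000 tags, a change of unit. The limits on RAS tags and on the fold over the surroundings act on the RAS library alone, and that on p also on vector tags. At that p, 142 of the 1477 comparison peaks remained. A peak with more vector tags needs more RAS tags to reach it, so nothing is read from the differences at that p. The share with a neighbour within 100 kb, 16.7%, was 2.15% for 10 kb, 80.6% for 1 Mb, 0.538% among vector-poor peaks alone, 3.85% at that p and 10.3% at that fold, where fewer peaks remain to be neighbours. The median fold, 8.67, was 6.10 with 1 tag added to both libraries and 12.05 at that p. With a two-sided exact limit of 3.69 tags for a count of 0, chosen after seeing the data, 4 and not 12 of the 14 peaks had a local background above it. The number of chromosomes apart from the overall share was 0 under each of the 5 alternatives tried. Depth limits every peak: with 0 to 2 vector tags, the lower limit of the ratio was under 2 at 164 of 372.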
